A study of Mus musculus with 6 samples.

Results

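Genes of cholesterol and fatty acid synthesis, with their regulators and the genes of the liver X receptors (LXR), were followed in mouse embryonic fibroblasts (MEFs) given ORAI2 by adenovirus. The members are 38 genes named for their place in these pathways. The choice was made with earlier results of these data known. All 38 were found by Entrez number among the 26532 genes of the table, and all 38 passed the filter on low counts that left 13764 genes for testing. They form 4 branches: 19 genes of sterol synthesis, 6 of sterol regulation and transport, 8 of fatty acid synthesis and 5 of the LXR system.

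The tested cells carried a recombinant adenovirus with ORAI2, a pore subunit of store-operated calcium channels, and are labelled with the genotype ORAI2 overexpression. The control cells carried an adenovirus with green fluorescent protein (GFP) and are labelled WT. Each group has 3 libraries, and every library carries the labels MEFs, mesenchymal stem cells and osteogenic differentiation. The title of the series names BMP9 as the inducer, but the sample labels do not state whether it was added, the dose of virus, the time, or whether the 3 libraries of a group were separate cultures. The p-values therefore set the difference between groups only against the spread between these libraries, which may be technical.

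Total counts lay between 18526884 and 18844436 per library. Orai2 stood at 3656, 2831 and 2441 CPM (counts scaled to a common library total) in the ORAI2 libraries and at 53.4, 48.9 and 48.6 CPM in the GFP libraries, higher in every ORAI2 library. The mesenchymal label was met by 10 of 11 marker genes above the filter, among them Vim, Pdgfra and Prrx1, whereas Thy1 had at most 3 counts in a library. The osteoblast genes Sp7 and Bglap had at most 4 counts in a library and Alpl at most 1.03 CPM. Summed osteoblast markers, of which only Col1a1 was called (486 ± 18.4 CPM in ORAI2 and 1260 ± 47.6 CPM in GFP libraries, SD, n = 3 each), lay between 1039 and 1177 CPM in ORAI2 and between 1860 and 2084 CPM in GFP libraries, and their part in the results below was not tested. Summed mesenchymal markers lay between 6188 and 6684 CPM in ORAI2 and between 7038 and 7540 CPM in GFP libraries, mostly from Fn1 (means of 5177 and 5792 CPM). Of the 10 tested, 8 were lower and Cd44 was higher (log2 fold change 0.21). Summed endothelial markers lay between 16.3 and 17.6 CPM in ORAI2 and between 6.48 and 8.83 CPM in GFP libraries. Both tested endothelial genes, Kdr and Vwf, were called higher (log2 fold change 1.0 and 1.46), while the defining genes Pecam1 and Cdh5 had at most 7 counts. Epithelial markers summed to between 4.22 and 5.12 CPM in ORAI2 and between 2.73 and 3.75 CPM in GFP libraries. Grhl2 was called higher (2.23), whereas Krt18, the other one tested, was not called (-0.23). Cdh1 had at most 5 counts in a library and Epcam was at 0 in all libraries. The part of these markers in the results was not tested. In these bulk samples, fewer cells of a type and less RNA per cell cannot be told apart.

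Cells make cholesterol from acetyl-CoA through mevalonate, farnesyl diphosphate, squalene and lanosterol. The genes are switched on by the SREBP transcription factors, which SCAP escorts out of the endoplasmic reticulum when sterols are scarce and which INSIG proteins hold back when sterols are plentiful. SREBPs also drive fatty acid synthesis and desaturation, while LXRs sense oxysterols and switch on cholesterol export. NF-Y, which binds the letters CCAAT, works beside SREBPs at many of these promoters.

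The promoters of Hmgcs1 and Fasn are shown because these genes changed in opposite directions. Of the windows read, only that of Hmgcs1 held the form of the sterol element searched for. Members whose windows lacked it included genes called lower, such as Ebp and Srebf2, and the genes called higher, Fasn and Sc5d. RefSeq windows of GRCm38.p6, 250 bases before to 50 after each annotated start, were held for 30 of the 38 members. They were searched on both strands for TCACNCCAC, a form of the sterol regulatory element, and for CCAAT. In the sequences below, read 5′ to 3′ along the gene's strand, capitals mark these letters on either strand, so that ATTGG is CCAAT on the other strand.
Hmgcs1 (chr13:119690101-119690400, plus strand): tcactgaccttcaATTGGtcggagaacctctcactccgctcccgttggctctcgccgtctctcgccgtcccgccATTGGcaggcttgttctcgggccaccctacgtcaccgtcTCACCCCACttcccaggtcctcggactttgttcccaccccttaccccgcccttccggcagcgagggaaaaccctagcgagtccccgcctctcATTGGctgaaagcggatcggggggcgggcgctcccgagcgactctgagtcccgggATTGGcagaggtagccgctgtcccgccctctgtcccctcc
Fasn (chr11:120824498-120824797, minus strand): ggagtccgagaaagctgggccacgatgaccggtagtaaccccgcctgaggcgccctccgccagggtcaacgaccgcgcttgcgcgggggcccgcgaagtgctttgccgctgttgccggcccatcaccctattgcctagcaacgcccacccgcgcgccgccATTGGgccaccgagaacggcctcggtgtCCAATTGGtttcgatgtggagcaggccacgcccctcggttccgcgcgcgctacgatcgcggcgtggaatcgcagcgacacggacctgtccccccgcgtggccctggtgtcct

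Hmgcs1 was the 1 member of 30 (3.33%) with this form of the sterol element, which 388 of 27025 genes with a window (1.44%) held. The first base of the Hmgcs1 match lay at position -137 from the start. Other forms of the element, sites outside the windows and members without a window were not searched. CCAAT was found in 22 of the 30 members (73.3%), against 11096 of 27025 genes (41.1%). The 27025 genes were not limited to those tested, whereas all members were. Windows numbered 39 for the 30 members and 32851 for the 27025 genes, so the shares are not of like sets. Hmgcs1 held 4 and Fasn 3 CCAAT matches, of which a pair overlap in Fasn. A match is a description of the letters, and binding was not measured.

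Across the 4 branches, lower levels in ORAI2 cells prevailed. By edgeR's quasi-likelihood test with Benjamini-Hochberg adjustment over all 13764 genes, 24 of the 38 members (63.2%) were called lower at an adjusted p of 0.05 and 2 (5.26%) higher, while 12 were not called. Without GFP replicate 1, 23 were lower and 4 higher. Over all genes tested, 22.1% were called lower and 20.8% higher. The median log2 fold change of the members was -0.32, beside -0.0018 over all genes. A change of at least 1.5-fold was called lower in 6 members and higher in 0 (6.35% and 2.54% of all genes). The ORAI2 libraries all lay below the GFP libraries in 24 members and all above in 2, where 26.6% and 26.2% of all genes did so.

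**Figure D1:**
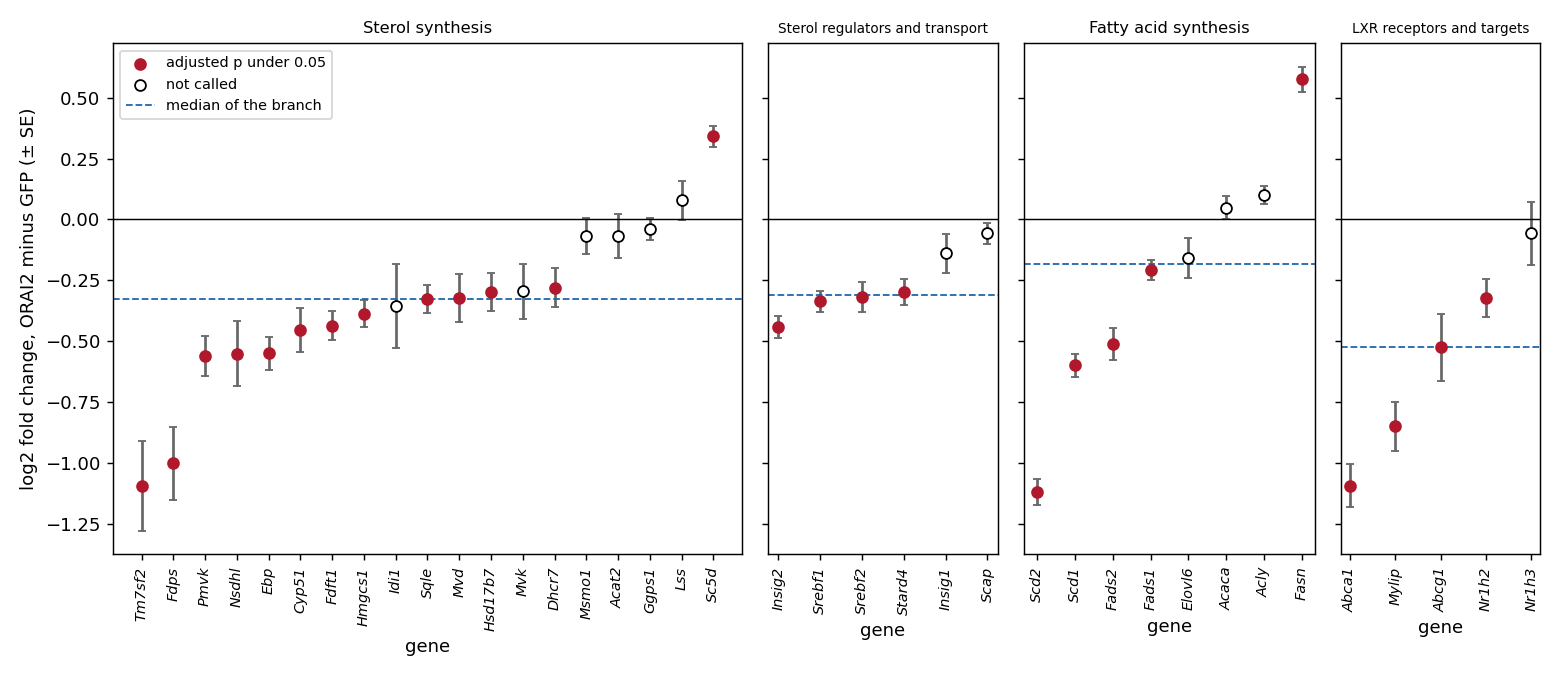
Log2 fold change of each of the 38 members, ORAI2 minus GFP (vertical axis), by branch, with the SE as bars, filled points for genes called at an adjusted p under 0.05 and a dashed line at each branch's median. Of the members called, 24 lie below 0 and the other 2, Sc5d and Fasn, lie above it.

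The first steps of sterol synthesis, to mevalonate and farnesyl diphosphate, had 4 of 8 genes lower and 0 higher, with a median log2 fold change of -0.34. Hmgcs1, the synthase that makes HMG-CoA, was at 66.0, 61.0 and 64.6 CPM in ORAI2 libraries and at 90.7, 79.6 and 80.3 CPM in GFP libraries. No ORAI2 library reached the lowest GFP library, and the log2 fold change was -0.39 (SE 0.05, adjusted p = 1.08e-04, edgeR). An antisense transcript shares 12.1% of the Hmgcs1 exon bases in the GENCODE annotation of GRCm38, and counting by strand is not stated in the sources used here.

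Pmvk, phosphomevalonate kinase, was at 15.3, 13.2 and 13.8 CPM in ORAI2 and at 21.6, 21.5 and 19.3 CPM in GFP libraries (log2 fold change -0.56, SE 0.08, adjusted p = 1.44e-04, edgeR). Every ORAI2 library lay below every GFP library. Mvd, the decarboxylase after it, averaged 10.9 ± 0.51 CPM in ORAI2 and 13.7 ± 1.68 CPM in GFP libraries (SD, n = 3 each, adjusted p = 0.0197, edgeR). Its call was lost without ORAI2 replicate 2, GFP replicate 1 or GFP replicate 2 (adjusted p = 0.0712, 0.0891 and 0.0602).

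Fdps, which makes farnesyl diphosphate, was at 59.2, 43.3 and 51.8 CPM in ORAI2 and at 129.7, 102 and 77.6 CPM in GFP libraries. The GFP libraries spread widely but stayed above all ORAI2 libraries (log2 fold change -1.0, SE 0.15, adjusted p = 1.71e-04, edgeR). In GENCODE, 4 pseudogenes match the Fdps transcript at 96.1% to 98.9% identity, and Gm43738 shares 26.7% of its exon bases, so that its own change is uncertain. Mvk, mevalonate kinase, Idi1, Ggps1 and Acat2 were not called, with log2 fold changes of -0.30, -0.36, -0.04 and -0.07 (SE 0.11, 0.17, 0.04 and 0.09). Mvk lay near the threshold and was called lower in 6 of the 15 alternatives, and Idi1 was called lower without ORAI2 replicate 1 (adjusted p = 0.00551, edgeR), its log2 fold change ranging from -0.61 to -0.17 with single libraries left out. Idi1, the isomerase that opens isoprenoid assembly, averaged 21.6 ± 6.23 CPM in ORAI2 and 27.7 ± 5.93 CPM in GFP libraries, where replicate 1 was the highest in each group (28.8 and 34.5 CPM). Ggps1, at the branch toward protein prenylation, averaged 58.5 ± 0.82 and 60.1 ± 2.31 CPM in ORAI2 and GFP libraries. These genes have near copies as well. Acat3 matches Acat2 at 97.7% identity over 1477 bases, and Tcp1 matches Acat2 at 98.7% over 445 bases. The pseudogene Gm13502 matches Idi1 at 100% over 684 bases, and Gm5630 matches Ggps1 at 97.2% over 903 bases. Gm48574 on the other strand shares 9.22% of the Idi1 exon bases.

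The steps committed to sterols, from squalene to cholesterol, had 8 of 11 genes lower and 1 higher (median log2 fold change -0.33). Fdft1, squalene synthase, was at 77.0, 69.5 and 73.1 CPM in ORAI2 and at 109.0, 96.4 and 91.8 CPM in GFP libraries. The groups did not overlap (log2 fold change -0.44, SE 0.06, adjusted p = 9.32e-05, edgeR). Exons of Ctsb on the other strand share 18.3% of the Fdft1 exon bases. A pseudogene, Gm6781, matches the Fdft1 transcript at 97.4% identity over 1249 bases, so some reads could have been shared. Sqle, squalene epoxidase, was at 69.3, 65.6 and 63.6 CPM in ORAI2 and at 90.3, 80.8 and 77.9 CPM in GFP libraries (log2 fold change -0.33, SE 0.06, adjusted p = 5.13e-04, edgeR), again without overlap.

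Lanosterol is then demethylated and reduced. Cyp51, lanosterol demethylase, averaged 96.3 ± 12.4 CPM in ORAI2 and 132 ± 16.7 CPM in GFP libraries, and Nsdhl, a dehydrogenase of the demethylation complex, 29.3 ± 4.56 and 43.0 ± 9.08 CPM (adjusted p = 0.00155 and 0.00516, edgeR). Both calls were lost in the robust fit (adjusted p = 0.0607 and 0.102). Hsd17b7 of the same complex was lower as well (log2 fold change -0.30, adjusted p = 0.00781, edgeR). Tm7sf2, a sterol reductase, was scarce, at 2.42, 2.30 and 2.87 CPM in ORAI2 and at 6.60, 5.41 and 4.23 CPM in GFP libraries. Even the lowest GFP library stood above all ORAI2 libraries (log2 fold change -1.10, SE 0.18, adjusted p = 4.10e-04, edgeR). Vps51 shares 12.1% of the Tm7sf2 exon bases on the same strand.

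Ebp, the isomerase that moves the ring double bond, was at 24.7, 23.8 and 25.9 CPM in ORAI2 and at 39.3, 36.0 and 33.5 CPM in GFP libraries. Its fall had the smallest p among the sterol synthesis genes (log2 fold change -0.55, SE 0.07, adjusted p = 3.55e-05, edgeR). Sc5d, the desaturase that acts after Ebp, went the other way, at 108.0, 98.1 and 105.8 CPM in ORAI2 and at 84.6, 80.9 and 80.8 CPM in GFP libraries. No GFP library reached the lowest ORAI2 library (log2 fold change 0.34, SE 0.04, adjusted p = 5.56e-05, edgeR). Dhcr7, which completes cholesterol, averaged 11.4 ± 0.26 and 13.8 ± 0.66 CPM in ORAI2 and GFP libraries (adjusted p = 0.0128, edgeR), a call lost with DESeq2 (adjusted p = 0.0644).

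Lss, which closes the sterol rings, and Msmo1, the methylsterol oxidase, were not called, with log2 fold changes of 0.08 and -0.07 (SE 0.08 and 0.07). Lss averaged 57.2 ± 3.59 CPM in ORAI2 and 54.2 ± 7.27 CPM in GFP libraries. Without GFP replicate 1 it was called higher (log2 fold change 0.19, adjusted p = 0.0268, edgeR; from 0.0119 with other libraries left out), and the sign for Msmo1 turned (0.03).

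**Figure D2:**
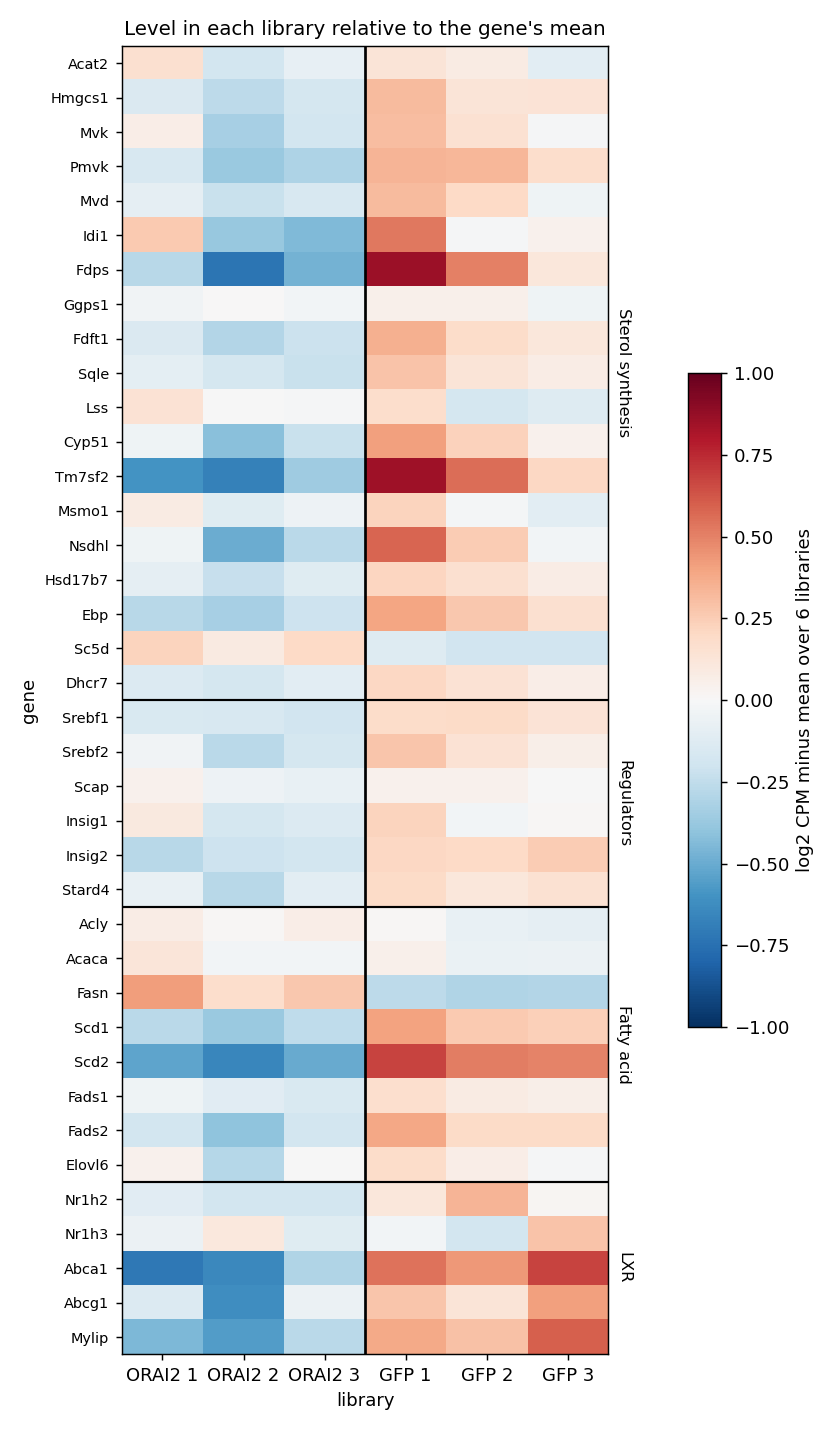
Level of each member in each library as log2 CPM minus the gene's mean over the 6 libraries (colour), with the ORAI2 libraries left of the GFP libraries and black lines between branches. Most rows are blue in ORAI2 and red in GFP, Sc5d and Fasn run the other way, and the replicate 1 columns are the reddest of their group in many sterol rows.

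Among the regulators, the genes of both SREBPs were lower. Srebf1, the SREBP of lipogenesis, was at 48.1, 48.1 and 47.0 CPM in ORAI2 and at 60.8, 61.1 and 58.9 CPM in GFP libraries. Each group was tight and they stood apart (log2 fold change -0.34, SE 0.04, adjusted p = 5.04e-05, edgeR), though a count per gene does not separate its isoforms. Srebf2, the SREBP of sterol synthesis, was at 259.6, 221 and 235 CPM in ORAI2 and at 323, 294 and 276 CPM in GFP libraries. Here too the groups did not overlap (log2 fold change -0.32, SE 0.06, adjusted p = 0.00122, edgeR). Scap was not called, at 88.3, 82.9 and 81.7 CPM in ORAI2 and at 88.8, 88.5 and 85.9 CPM in GFP libraries (log2 fold change -0.06, SE 0.04, adjusted p = 0.293, edgeR). Exons of another gene on the other strand share 13.2% of the Scap exon bases.

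The INSIG genes, which encode the retention proteins, gave different outcomes. Insig2 was at 42.9, 44.9 and 45.6 CPM in ORAI2 and at 60.01, 59.5 and 62.0 CPM in GFP libraries. It was the regulator with the smallest p (log2 fold change -0.44, SE 0.05, adjusted p = 8.36e-06, edgeR). Insig1, itself a classic SREBP target, was at 45.2, 37.4 and 38.4 CPM in ORAI2 and at 49.2, 41.4 and 42.6 CPM in GFP libraries. The groups overlapped, and the log2 fold change of -0.14 (SE 0.08) was not called (adjusted p = 0.182, edgeR). With single libraries left out the value ranged from -0.22 to -0.06, and it was called lower only without ORAI2 replicate 1 (adjusted p = 0.0353). The difference between the changes of Insig1 and Insig2 was not tested. Stard4, a sterol carrier between membranes, was at 64.0, 55.7 and 62.8 CPM in ORAI2 and at 77.0, 72.8 and 74.8 CPM in GFP libraries (log2 fold change -0.30, SE 0.05, adjusted p = 6.59e-04, edgeR), with no overlap.

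In fatty acid synthesis, 4 of 8 genes were called lower and 1 higher (median log2 fold change -0.18). Of the 3 enzymes that supply acetyl-CoA or build the chain, none was called lower, where 22.1% of all genes tested were. A set of 3 is too small to set against that share. Fasn, fatty acid synthase, was at 302, 256 and 274 CPM in ORAI2 and at 189, 184 and 185 CPM in GFP libraries. All ORAI2 libraries lay far above the narrow GFP range (log2 fold change 0.58, SE 0.05, adjusted p = 2.57e-06, edgeR), a 1.49-fold rise. Acly, which supplies cytosolic acetyl-CoA, was at 177, 169.5 and 177 CPM in ORAI2 and at 169.9, 160.2 and 158 CPM in GFP libraries. It narrowly missed the threshold (log2 fold change 0.10, SE 0.04, adjusted p = 0.0535, edgeR) and was called higher in 7 of the 15 alternatives. Acaca, which makes malonyl-CoA, was at 154, 139 and 139 CPM in ORAI2 and at 147, 135 and 136 CPM in GFP libraries, and the groups overlapped (log2 fold change 0.05, SE 0.05, adjusted p = 0.446, edgeR). Leaving out single libraries gave values from 0.0035 to 0.0883. A pseudogene, Gm5182, matches a long part of the Acaca transcript at 99.2% identity.

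The 4 fatty acid desaturases among the members, which put double bonds into finished chains, were all called lower. Scd2, a stearoyl-CoA desaturase, was at 396, 364 and 403 CPM in ORAI2 and at 910.3, 814 and 804 CPM in GFP libraries. The ORAI2 libraries held less than the lowest GFP library by a wide margin (2.18-fold lower, log2 fold change -1.12, SE 0.05, adjusted p = 1.53e-08, edgeR), the smallest p of the 38 members. Scd1, its close relative, was at 215, 199.9 and 217 CPM in ORAI2 and at 342, 310.1 and 306 CPM in GFP libraries. It was 1.51-fold lower (log2 fold change -0.60, SE 0.05, adjusted p = 9.53e-07, edgeR), and the groups were well apart. A Scd1 transcript matches Scd2 at 95.5% identity over 623 bases, so some reads could have been split between them.

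Fads2, the first desaturase of polyunsaturated chains, was at 105.5, 90.3 and 105.6 CPM in ORAI2 and at 156, 137 and 137 CPM in GFP libraries (log2 fold change -0.51, SE 0.07, adjusted p = 4.46e-05, edgeR). Its partner Fads1 was at 203, 193 and 189 CPM in ORAI2 and at 236, 222 and 219 CPM in GFP libraries (log2 fold change -0.21, SE 0.04, adjusted p = 0.00135, edgeR). Neither gene's groups overlapped. Elovl6, which lengthens palmitate, was at 32.2, 25.5 and 31.1 CPM in ORAI2 and at 35.4, 32.7 and 30.9 CPM in GFP libraries, and the groups overlapped (log2 fold change -0.16, SE 0.08, adjusted p = 0.148, edgeR). With single libraries left out the value ranged from -0.22 to -0.06. A pseudogene, Gm11295, matches the Elovl6 transcript at 97.4% identity over 805 bases.

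Adipocytes are rich in these lipogenic enzymes, and their markers gave summed levels between 47.5 and 54.3 CPM in ORAI2 and between 49.5 and 55.8 CPM in GFP libraries. Of the 8 markers, 3 passed the filter. Fabp4, which gave most of the sum, averaged 41.4 ± 4.75 CPM in ORAI2 and 47.9 ± 4.02 CPM in GFP libraries (SD, n = 3 each). It was not called (log2 fold change -0.21, adjusted p = 0.0501, edgeR). Cebpa, at most 1.03 CPM, was not called either (-0.12). Adipoq was at 0 in all libraries, and Plin1, Cidec and Lpl had at most 2 counts. Pparg, the adipogenic regulator, was at 8.51, 9.98 and 6.92 CPM in ORAI2 and at 4.62, 5.19 and 3.43 CPM in GFP libraries, without overlap (log2 fold change 0.94, SE 0.17, adjusted p = 5.80e-04, edgeR). Its part in the fatty acid results was not tested.

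**Figure D3:**
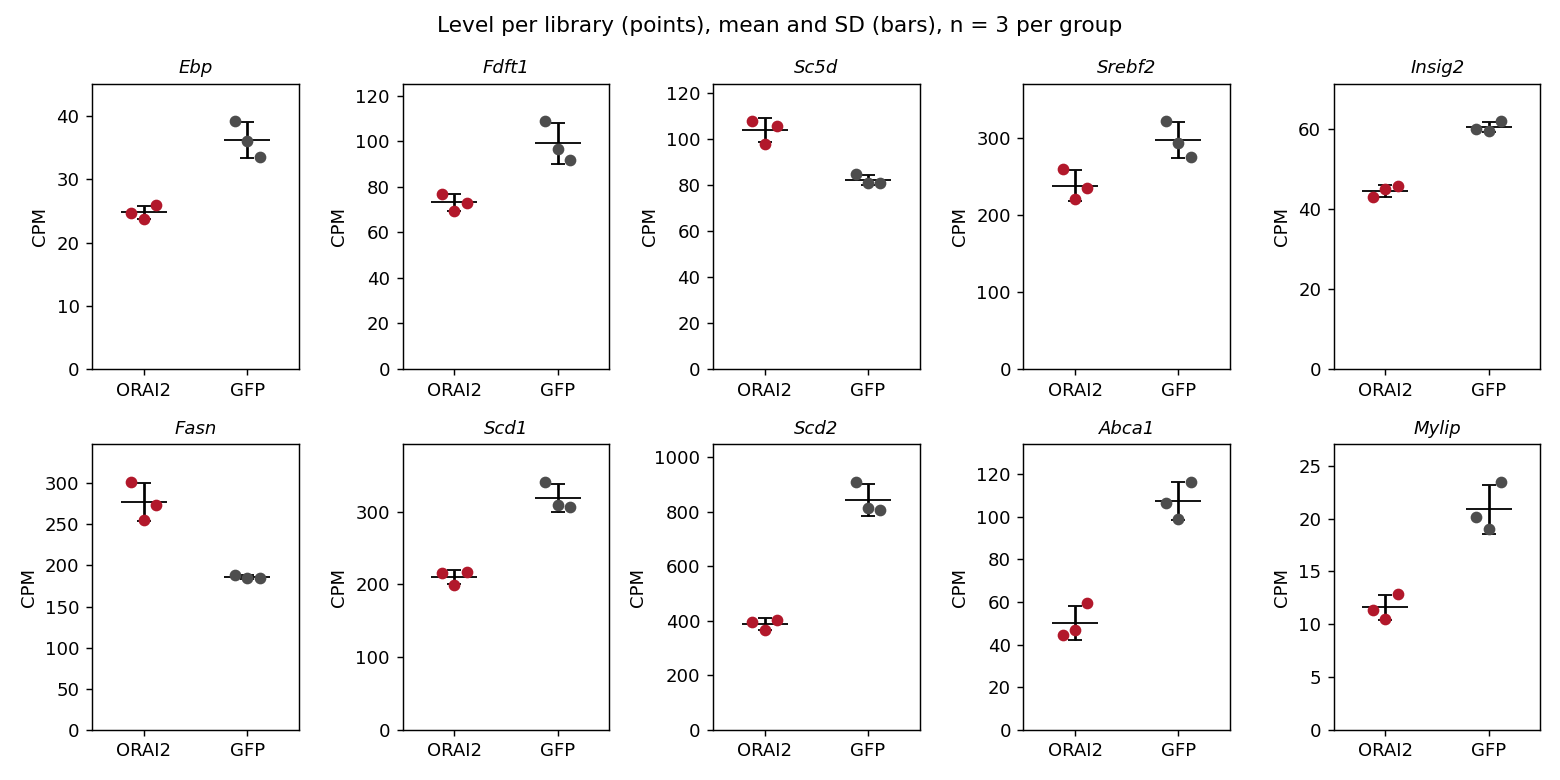
CPM in each library (points) with the mean and SD (bars, n = 3 per group) for 10 members, ORAI2 left of GFP, each axis starting at 0. All 10 were picked from the members called without overlap, so the groups are apart by choice, with Sc5d and Fasn higher in ORAI2 and the other genes lower.

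In the LXR branch 4 of 5 genes were lower and 0 higher, with a median log2 fold change of -0.53. Nr1h2, the widely expressed receptor LXR beta, was at 24.2, 23.0 and 23.0 CPM in ORAI2 and at 28.3, 33.1 and 26.5 CPM in GFP libraries, without overlap (log2 fold change -0.32, SE 0.08, adjusted p = 0.00561, edgeR). Nr1h3, LXR alpha, was scarce, at 6.73, 7.53 and 6.44 CPM in ORAI2 and at 6.87, 6.15 and 8.51 CPM in GFP libraries. The groups overlapped and no difference was called (log2 fold change -0.06, SE 0.13, adjusted p = 0.755, edgeR), with the sign turning without GFP replicate 3 (0.08).

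The 3 LXR targets placed in this branch fell. Abca1, the exporter that loads cholesterol onto apolipoproteins, was at 44.6, 46.7 and 59.4 CPM in ORAI2 and at 106, 98.8 and 117 CPM in GFP libraries. The highest ORAI2 library was far below the lowest GFP library (2.14-fold lower, log2 fold change -1.09, SE 0.09, adjusted p = 1.10e-06, edgeR). Mylip, a ubiquitin ligase that removes lipoprotein receptors, was at 11.4, 10.52 and 12.9 CPM in ORAI2 and at 20.1, 19.0 and 23.5 CPM in GFP libraries (1.80-fold lower, log2 fold change -0.85, SE 0.10, adjusted p = 2.53e-05, edgeR). Abcg1, a second sterol exporter, was at 7.001, 5.02 and 7.41 CPM in ORAI2 and at 9.34, 8.40 and 10.2 CPM in GFP libraries (log2 fold change -0.53, SE 0.14, adjusted p = 0.00821, edgeR). The groups of Mylip and Abcg1 did not overlap either.

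Macrophages express these exporters strongly, and their markers were lower too. Summed macrophage markers lay between 26.7 and 36.0 CPM in ORAI2 and between 52.0 and 56.2 CPM in GFP libraries, nearly all from Cd14 and Mpeg1. Of the 7 markers, 3 passed the filter and 2 of them were lower, and the defining genes Csf1r and Ptprc had at most 4 counts in a library. Their part in the LXR results was not tested.

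Set side by side, the share called lower was 63.2% in sterol synthesis, 66.7% among its regulators, 50% in fatty acid synthesis and 80.0% in the LXR branch, of 19, 6, 8 and 5 genes, beside 22.1% of all genes tested. Summed levels were 909 ± 65.9 CPM in ORAI2 and 1097 ± 122 CPM in GFP libraries for sterol synthesis, 1519 ± 75.2 and 2052 ± 116 CPM for fatty acid synthesis, and 98.6 ± 9.18 and 174 ± 10.3 CPM for the LXR branch (SD, n = 3 each). The sums overweight abundant genes, and that of fatty acid synthesis carries Scd2. No test compares the branches, whose genes are few and not independent.

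The branches also varied differently among libraries of the same group. The replicate 1 library was the highest of its group in both groups at once for 15 of 19 sterol synthesis genes and for 24 of the 38 members (63.2%), beside 13.2% of all genes tested. GFP replicate 1 was highest in 18 and GFP replicate 3 lowest in 16 of the 19. In the LXR branch, by contrast, GFP replicate 1 was highest in 0 of 5 genes and GFP replicate 3 in 4. The labels do not say what a shared number means. Without GFP replicate 1 the median log2 fold change of sterol synthesis was -0.26, with 11 genes lower and 2 higher, and without GFP replicate 3 it was -0.42, with 13 lower and 1 higher.

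Neighbouring pathways were read from 8 further lists. Of their 84 genes 77 were tested, and 25 were lower (32.5%) and 10 higher (13%), with a median log2 fold change of -0.02. Each list is small and is to be read beside all genes tested, of which 22.1% were lower and 20.8% higher. Among 8 other sterol enzymes and electron donors, 4 were lower and 1 higher. Cyb5a and Cyb5r3, which pass electrons to desaturases and oxidases, were lower (log2 fold change -0.48 and -0.31, adjusted p = 2.00e-04 and 3.63e-04, edgeR), and so was Erg28, a scaffold of sterol demethylation (-0.30, adjusted p = 0.00463). Of 7 genes that process SREBPs or sense sterols, 2 were lower and 2 higher (28.6% each), near the shares over all genes. Mbtps1, the first protease to cut SREBPs, was at 218 ± 2.47 CPM in ORAI2 and 255 ± 9.15 CPM in GFP libraries (adjusted p = 3.48e-04). Rnf139, a ubiquitin ligase of the endoplasmic reticulum, was lower (log2 fold change -0.33, adjusted p = 1.82e-04, edgeR).

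Of 9 genes of sterol transport and storage, 3 were lower and 2 higher. Soat1, which esterifies cholesterol for storage, was at 146, 143 and 144 CPM in ORAI2 and at 107, 104 and 110.3 CPM in GFP libraries, clearly apart (log2 fold change 0.43, SE 0.04, adjusted p = 1.35e-06, edgeR). Npc1, which moves cholesterol out of lysosomes, was higher (0.26, adjusted p = 2.40e-04), while Stard5, a sterol carrier, was lower (-0.40, adjusted p = 4.23e-05). Of 13 genes that use isoprenoids, 0 were lower and 3 higher. The share higher, 23.1%, lay near the 20.8% of all genes tested, of which 22.1% were lower. Those called higher were Nus1 of dolichol synthesis and the prenyltransferase subunits Rabggtb and Pggt1b. Their log2 fold changes were 0.27, 0.31 and 0.18 (adjusted p = 6.34e-05, 6.38e-05 and 0.00142, edgeR).

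Of 16 tested genes of fatty acid supply and elongation, 7 were lower and 2 higher. Tecr, which completes each elongation cycle, and Slc25a1, the citrate carrier of mitochondria, were lower (log2 fold change -0.54 and -0.43), and Elovl4, an elongase of very long chains, was higher (0.54, adjusted p = 1.94e-06, edgeR). Of 13 acyl-CoA synthetase and glycerolipid genes, 4 were lower and 0 higher, with Acsl4, Lpin1 and Agpat2 at -0.29, -0.55 and -0.29. Of 7 tested LXR partners and targets, 3 were lower and 0 higher. Pltp, the phospholipid transfer protein, was at -0.46 (adjusted p = 9.64e-05, edgeR). The calls of Lpcat3 and Arl4c (log2 fold change -0.17 and -0.16) were lost with DESeq2 (adjusted p = 0.0697 and 0.0580) and when single libraries were left out.

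Of 4 enzymes that make or further convert oxysterols, 2 were lower and 0 higher. Ch25h, cholesterol hydroxylase, was at 33.8, 36.9 and 34.7 CPM in ORAI2 and at 53.0, 59.1 and 47.8 CPM in GFP libraries. The groups did not overlap (log2 fold change -0.60, SE 0.07, adjusted p = 2.64e-05, edgeR). Cyp7b1, which hydroxylates oxysterols further, was scarce, at 1.99, 3.04 and 3.95 CPM in ORAI2 and at 7.89, 8.08 and 6.05 CPM in GFP libraries (log2 fold change -1.29, SE 0.20, adjusted p = 2.11e-04, edgeR), also without overlap.

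**Figure D4:**
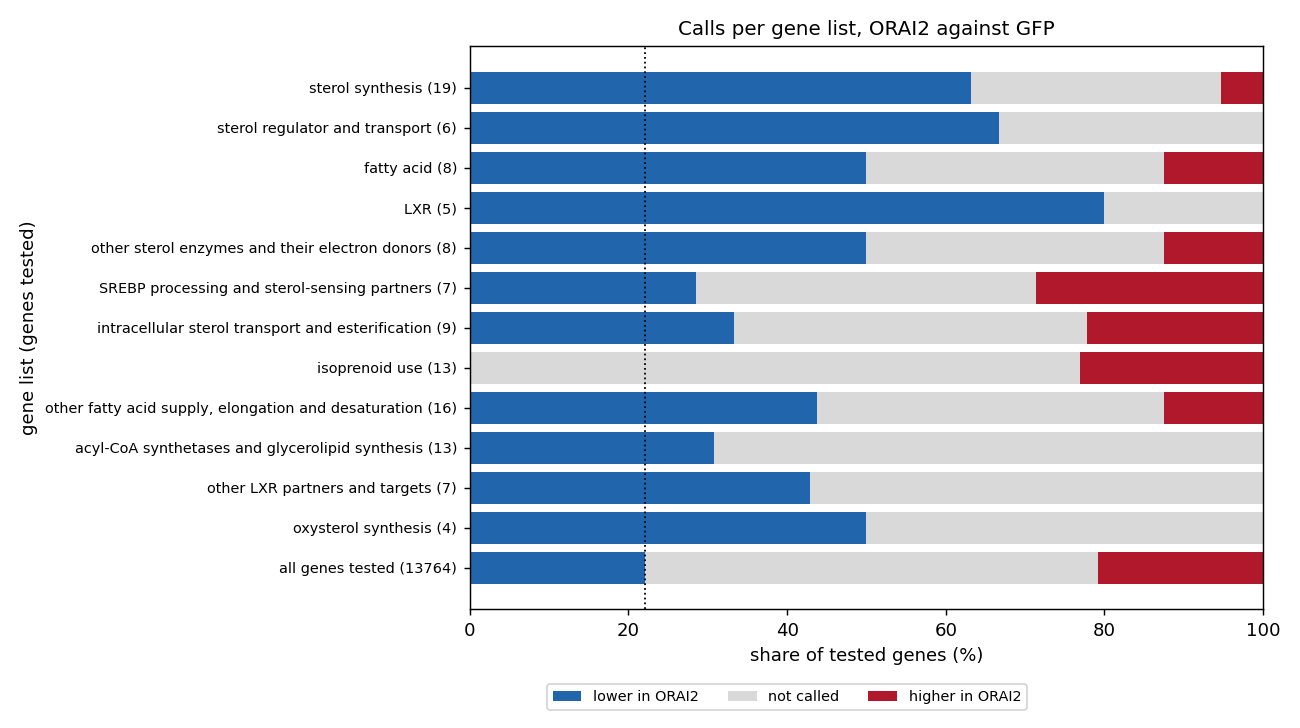
Share of tested genes (horizontal axis, percent) called lower in ORAI2 (blue), not called (grey) and called higher in ORAI2 (red) in each gene list, with the number tested in brackets, and the share lower over all genes as a dotted line. The 4 member branches lie between 50% and 80.0% lower, isoprenoid use at 0%, and all genes at 22.1%.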

How the data were processed

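RNA was measured in 3 ORAI2 and 3 GFP libraries. Per the file headers, the authors deposited whole-number counts and TPM values per Entrez gene and library. The tools HISAT2 2.0.4 and Salmon 1.4.0 and the build GRCm39 are named in the submitters' processing notes. Their roles, the annotation and the strand setting were not given in the sources used here. TPM values, as deposited, ranked differently from the counts under the same name and entered no comparison. Symbols came from RefSeq genes of GRCm38.p6 (25631 of 26532 matched). Counts were fitted with edgeR 4.0.16 in R 4.3.3 (glmQLFit, glmQLFTest, TMM, filterByExpr with a minimum count of 10, group as the only term) across all genes, called at a Benjamini-Hochberg adjusted p of 0.05. Levels are CPM after TMM scaling, and standard errors derive from the F statistic. The steps were tested on simulated data. Alternatives used limma 3.58.1, DESeq2 1.42.0, other scalings and filters, a replicate block and each library left out. Members and lists were chosen with earlier results of these data known. Values per library are given for up to 8 called sterol synthesis genes with the smallest p and all members of the other branches, and up to 3 called genes per further list are named. Pparg, Kdr, Grhl2 and the other markers named were chosen after their values were seen. Copies (at least 95% identity over 200 bases) and exon overlaps were read from GENCODE. Library pairs within a group differed by more than sampling noise (chi-square per gene from 2.62 to 4.75).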

Additional observations from a re-analysis of the deposited data

Results flagged for a closer look

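The deposited TPM columns, which entered no comparison, held a signal in these genes. In the TPM columns numbered 3, 29 of the 38 members were at least 2-fold higher than in the columns numbered 1 and 2 of the same group, in ORAI2 and in GFP alike. The same held for 1.66% of the 11692 genes with at least 1 TPM in every column. These 29 were 18 of 19 sterol synthesis genes, 4 of 6 regulators, 6 of 8 fatty acid genes and 1 of 5 LXR genes. Hmgcs1 was at 34.34, 36.56 and 179.88 TPM in the columns named ORAI2-1, ORAI2-2 and ORAI2-3, and at 45.67, 46.64 and 299.08 TPM in those named GFP. Orai2 was at 1429.5, 1241.34 and 36.33 TPM in the ORAI2 columns and at 24.83, 24.86 and 38.19 TPM in the GFP columns, so the column named ORAI2-3 showed no excess of Orai2. By rank correlation over all genes, the TPM columns named 1 and 2 of each group were closest to the counts named 2 and 3 of that group (Spearman's rho from 0.957 to 0.959). The columns named 3 were closest to the counts of GFP replicate 1, at only 0.904 for ORAI2-3 and 0.901 for GFP-3. What these columns hold was not tested.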

How the results depend on the processing

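The 24 members lower stayed between 23 and 27 over the 15 alternatives. The replicate block gave 27 lower and 3 higher; it called Mvk, Idi1 and Insig1 lower and Acly higher (adjusted p = 0.0180, 7.54e-04, 0.0315 and 0.0305) and ended no member's call. After each gene's group mean of log2 CPM was taken off, same-numbered ORAI2 and GFP libraries had correlations of 0.136, 0.0734 and 0.126. By these deviations each library was closest to its own number in the other group, which the labels do not explain. Fatty acid members called higher numbered 2 with RLE factors, library size only, the 5 CPM filter, the robust fit and the block, against 1 in the main test, the addition being Acly. With single libraries left out, members called higher ranged from 2 to 4, sterol synthesis members higher from 1 to 2, fatty acid members higher from 1 to 2, and members higher by 1.5-fold from 0 to 1. With single libraries left out, the log2 fold changes of Acat2 (-0.1675 to 0.0103), Msmo1 (-0.1374 to 0.0336) and Nr1h3 (-0.1575 to 0.0823) turned sign, above 0 only without ORAI2 replicate 2, GFP replicate 1 and GFP replicate 3 in that order, none called. Of 569 fold changes of members under the alternatives, 542 kept direction and call. Genes of few counts, such as Tm7sf2 and Nr1h3, are limited by depth. The causes were not tested.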
